A study of Mus musculus with 9 samples.

Results

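Interferon-stimulated genes were followed in mouse embryonic stem cells and in embryoid bodies, the cell aggregates in which stem cells differentiate. The set held 46 genes, matched by gene symbol among 49326 named identifiers, all of which were found: nucleic acid sensors, the IRF and STAT factors that carry interferon signals, and the IFIT, OAS, MX, GBP, IRG, ISG15 and PARP effectors. Major histocompatibility and Ifitm genes were not part of it. Polyadenylated RNA was sequenced from 2 Hnrnpll-/- lines, called G6 and H8 (KO), and from wild-type cells (WT), at day 0 as stem cells and at days 4 and 8 as embryoid bodies from hanging drops, with 1 library from each line at each day, 9 in all. Hnrnpll encodes an RNA-binding protein that regulates splicing. The stem cells were kept in fetal bovine serum and leukemia inhibitory factor. The labels give no strain, no feeder cells, no interferon treatment and no account of how the KO lines were made, so whether each is 1 clone was not known.

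Interferons are secreted proteins that bind receptors on the cell surface and, through JAK kinases, activate STAT factors. The complex ISGF3, which holds STAT2 and IRF9, binds the interferon-stimulated response element in gene promoters, whereas interferon gamma acts mainly through the gamma-activated site. The induced proteins detect viral nucleic acid, block viral translation and assembly, or feed back on the pathway. Many cells express a low level of these genes without infection, and pluripotent stem cells are known for a weak interferon response.

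The response element was searched for in the promoters of the members. RefSeq promoter windows of build GRCm38.p6, running from 250 bases before the start to 50 bases after it, were matched by symbol for 34 of the 46 genes. The core letters, GAAA and GAAA again after any 2 bases, were searched on both strands and stood in 23 of these 34 windows (67.6%), against 943 of all 27025 windows (3.49%). The gamma-activated site letters TTCNNNGAA, also on both strands and free to overlap the first motif, stood in 9 of 34 windows (26.5%) against 8.47% of all windows, and the TATAAA box in 6 of 34 (17.6%) against 14.2%. No match says only that these letters are not in the window, and a match is no proof of binding. Usp18, Mx1, Mx2, Oas1b, Oas2, Zbp1, Dhx58, Iigp1, Rtp4, Parp9, Parp14 and Ifi27 had no window in the table.

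The 250 bases before the start are printed for 5 members, with each core match in capitals. Bst2, Isg15 and Oas1a were among the 6 members with a match and the highest WT level at day 0. Ifit1 and Oas3 were added after their values were seen, because Ifit1 was 327-fold lower in KO at day 0 and Oas3 had a log2 difference of -0.01, while both carry a match. Overlapping matches share capitals, and genes on the minus strand are given in their own sense.
Bst2, chr8:71537473-71537722, minus strand: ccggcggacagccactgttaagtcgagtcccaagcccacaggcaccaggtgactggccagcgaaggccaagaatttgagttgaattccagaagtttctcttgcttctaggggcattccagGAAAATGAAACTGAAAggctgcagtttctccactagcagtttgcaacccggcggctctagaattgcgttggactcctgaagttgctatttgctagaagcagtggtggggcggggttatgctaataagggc
Isg15, chr4:156200819-156201068, minus strand: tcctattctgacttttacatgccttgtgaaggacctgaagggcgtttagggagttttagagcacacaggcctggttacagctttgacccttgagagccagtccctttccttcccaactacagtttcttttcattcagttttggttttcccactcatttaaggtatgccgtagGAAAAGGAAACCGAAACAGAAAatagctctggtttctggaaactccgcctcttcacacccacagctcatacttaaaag
Oas1a, chr5:120907526-120907775, minus strand: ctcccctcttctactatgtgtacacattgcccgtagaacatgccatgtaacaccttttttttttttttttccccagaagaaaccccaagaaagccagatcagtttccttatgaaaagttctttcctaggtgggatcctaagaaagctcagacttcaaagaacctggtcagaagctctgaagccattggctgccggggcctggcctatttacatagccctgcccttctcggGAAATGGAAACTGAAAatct
Ifit1, chr19:34640639-34640888, plus strand: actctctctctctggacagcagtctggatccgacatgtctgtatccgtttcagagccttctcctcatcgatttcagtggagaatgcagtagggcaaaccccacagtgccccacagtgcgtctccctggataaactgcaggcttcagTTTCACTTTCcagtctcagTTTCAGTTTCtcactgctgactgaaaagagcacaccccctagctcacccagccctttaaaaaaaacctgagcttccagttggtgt
Oas3, chr5:120777660-120777909, minus strand: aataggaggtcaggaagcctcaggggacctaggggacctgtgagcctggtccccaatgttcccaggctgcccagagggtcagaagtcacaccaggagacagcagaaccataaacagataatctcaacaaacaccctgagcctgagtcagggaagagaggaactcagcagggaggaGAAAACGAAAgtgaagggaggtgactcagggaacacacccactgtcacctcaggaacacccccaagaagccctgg
Isg15 carried 3 overlapping matches that began at positions -78, -72 and -66 counted from the start. Bst2 carried 2, at -130 and -124, and Oas1a carried 2 close to the start, at -20 and -14. In Ifit1 the letters lay on the opposite strand at -104 and -85, and Oas3 held 1 match at -75. The other 3 of the 6 members, Irgm1, Ddx58 and Eif2ak2, are not printed: the matches of Ddx58 and Eif2ak2 lay after the start, and GENCODE places the Irgm1 start further upstream.

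Read totals ranged between 54218051 and 184952442 counts per library, and the 2 KO day 0 libraries were the shallowest, at 54218051 and 61626609. In these 2 libraries 43.4% and 42.6% of low counts fell on multiples of 4, against 30.5% to 33.1% in the other 7. By chance 25% would, so every library exceeded that share, and these 2 did so the most. Counts near the floor there may carry fewer independent reads than they show, but the cause of the excess was not tested. Hnrnpll itself was read at 54.9 and 24.5 TPM (a level scaled for gene length and depth) in KO against 77.1 TPM in WT at day 0, at 61.2 and 38.6 TPM in KO against 101 TPM in WT at day 4, and at 56.5 and 43.5 TPM in KO against 112 TPM in WT at day 8. It was lower in every KO library, yet present, and since the labels do not say which part of the gene was altered, its RNA level does not check the genotype. Levels are the deposited TPM, whereas differences were fitted to the deposited counts, so the 2 need not match in size. The identifiers were tested together with edgeR's quasi-likelihood test after a filter on low counts that kept 24794 genes and 45 members. P-values were adjusted by the Benjamini-Hochberg method over all of them, with 0.05 as the threshold. Every WT group is 1 library, whose spread is assumed to be that of the KO pairs. A difference between genotypes cannot be told apart from one between cell lines or cultures. The KO day 0 libraries also stood apart in depth and in low counts, and what this adds to the contrasts that use them was not tested.

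The members were high in the WT day 0 library and low in both KO lines. Their summed level was 288.5 and 307.4 TPM in KO, against 2598 TPM in WT at day 0. At day 4 it was 573 and 632 TPM in KO, against 1034 TPM in WT, and at day 8 the order was the other way, 408 and 522 TPM in KO against 251 TPM in WT. The median member stood at 0.781 and 0.664 TPM in KO against 29.4 TPM in WT at day 0, at 2.45 and 3.57 TPM in KO against 5.51 TPM in WT at day 4, and at 2.86 and 2.98 TPM in KO against 1.73 TPM in WT at day 8. Of the 46 members, 40 were highest in the WT day 0 library. The plot of all members by library shows this course gene by gene.

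**Figure D1:**
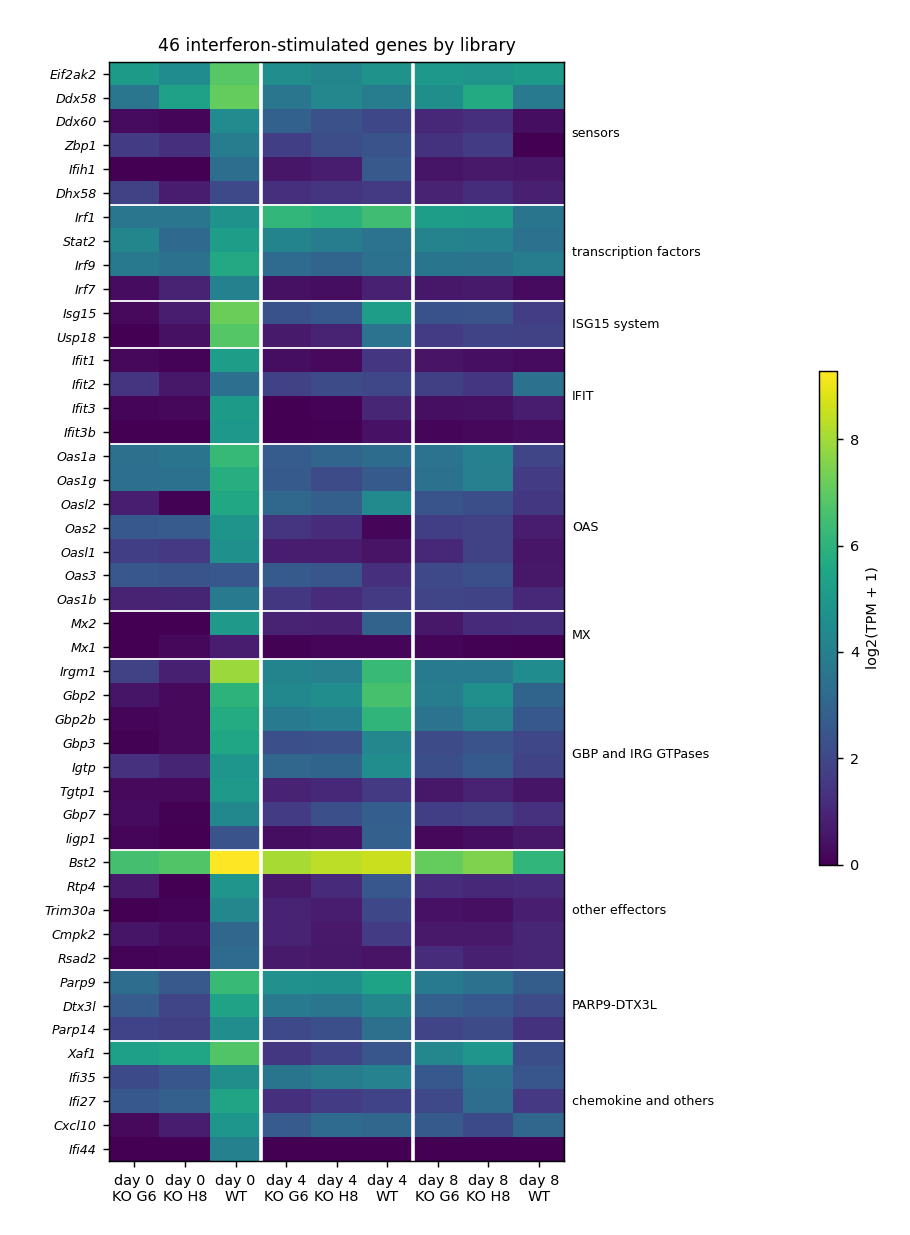
Level of the 46 interferon-stimulated genes, as log2(TPM + 1), in each of the 9 libraries, with genes in rows grouped by role and libraries in columns by day, KO lines G6 and H8 left of WT. The WT day 0 column is the brightest for 40 of the 46 genes, and both KO day 0 columns are dark for most of them.

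At day 0, 36 of the 45 tested members were lower in KO and 0 were higher, where 4.33% of all genes tested were lower and 1.11% higher. The median log2 difference of the members was -4.50, against -0.02 over all genes tested. By CPM, the depth-scaled count, both KO lines were below WT for 44 of 45 members, where the same held for 40.5% of all genes. In bulk RNA, fewer cells of a type and less RNA per cell cannot be told apart. Ifi44, an interferon-induced cytoplasmic protein, was not tested because only the WT day 0 library passed the filter: it had 0 counts in both KO lines against 2489 counts in WT, and so was at least 859-fold lower (taking 3 counts over both KO libraries as the floor; at least 215-fold if counts come in steps of 4).

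Among the sensors, which bind foreign RNA or DNA and start the response, 4 of 6 were lower at day 0. Eif2ak2, the kinase PKR that halts translation on binding double-stranded RNA, stood at 32.1 and 22.1 TPM in KO, against 118 TPM in WT, a log2 difference of -2.27 ± 0.21 (± SE, edgeR adjusted p = 0.00599). Ddx60, a helicase that assists RNA sensing, stood at 0.209 and 0.110 TPM in KO, against 21.2 TPM in WT (-6.47 ± 0.54, adjusted p = 0.00519). Zbp1, a sensor of Z-form nucleic acid that starts necroptosis, stood at 2.11 and 1.46 TPM in KO, against 14.0 TPM in WT (-3.47 ± 0.38, adjusted p = 0.00964). The KO lines did not overlap WT for any of these, and Ddx60 was close to absent in KO. Ddx58, which encodes the RNA sensor RIG-I, stood at 11.6 and 38.6 TPM in KO, against 135 TPM in WT, and its difference of -2.36 ± 0.74 did not pass (adjusted p = 0.124). Ifih1, the sensor MDA5, was lower (-8.44 ± 0.50, adjusted p = 0.00403), and Dhx58, the sensor LGP2, did not pass (adjusted p = 0.264).

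Of the 4 transcription factors, Irf9 and Irf7 were lower at day 0. Irf9, the DNA-binding part of ISGF3, stood at 12.6 and 10.1 TPM in KO, against 48.4 TPM in WT (-2.08 ± 0.24, adjusted p = 0.0109). Irf7, which amplifies interferon production, stood at 0.252 and 0.890 TPM in KO, against 16.1 TPM in WT (-4.70 ± 0.63, adjusted p = 0.0158). Both KO lines lay under WT for each. Stat2, a subunit of ISGF3, stood at 18.2 and 8.09 TPM in KO, against 35.9 TPM in WT (adjusted p = 0.0967), and Irf1, a factor that interferon gamma induces, at 11.4 and 11.4 TPM in KO, against 26.4 TPM in WT (adjusted p = 0.075). Neither passed, although KO was under WT in both lines.

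The ISG15 system and the IFIT family were almost silent in KO stem cells. Isg15, a ubiquitin-like protein joined to target proteins during infection, stood at 0.182 and 0.635 TPM in KO, against 147 TPM in WT, 345-fold lower (-8.43 ± 0.62 on the log2 scale, adjusted p = 0.00439). Usp18, the protease that removes ISG15 and also restrains the type I receptor, stood at 0 and 0.340 TPM in KO, against 113 TPM in WT (-9.83 ± 1.16, adjusted p = 0.0114). Both are among the strongest differences of the set, and neither reached 1 TPM in KO. The IFIT proteins bind viral RNA ends and block its translation. Ifit1 stood at 0.155 and 0.0678 TPM in KO, against 36.3 TPM in WT (-8.36 ± 0.56, adjusted p = 0.00436), and Ifit3 at 0.0789 and 0.138 TPM in KO, against 32.3 TPM in WT (-8.18 ± 1.05, adjusted p = 0.0142). Ifit3b, a near copy of Ifit3 whose reads are hard to assign, had 0 counts in both KO lines against 30.0 TPM in WT, at least 1240-fold lower (adjusted p = 0.0129; at least 310-fold with counts in steps of 4). Ifit2 differed less, at 1.62 and 0.502 TPM in KO, against 9.59 TPM in WT (-3.18 ± 0.61, adjusted p = 0.042).

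The OAS enzymes make 2-5A, the messenger that activates RNase L, and kept a measurable level in KO. Oas1a stood at 9.85 and 10.9 TPM in KO, against 74.7 TPM in WT (-2.84 ± 0.34, adjusted p = 0.0118), and Oas1g, a close paralog next to it on chromosome 5, at 9.54 and 10.3 TPM in KO, against 54.8 TPM in WT (-2.35 ± 0.33, adjusted p = 0.0181). Oas2 stood at 4.95 and 5.35 TPM in KO, against 26.8 TPM in WT (-2.47 ± 0.29, adjusted p = 0.011). These 3 remained near or above 5 TPM in both KO lines while still under WT. Oasl2, an OAS-like protein, was nearly lost in KO, at 0.730 and 0.0384 TPM in KO, against 44.9 TPM in WT (-7.32 ± 0.88, adjusted p = 0.012). Oas3 had nearly the same level in all 3 libraries, at 4.71 and 4.30 TPM in KO, against 4.72 TPM in WT, with a log2 difference of -0.01 ± 0.29 (adjusted p = 1). In all, 6 of the 7 OAS genes were lower.

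The MX proteins are dynamin-like GTPases that trap viral components. Mx2 had 0 counts in both KO lines against 31.8 TPM in WT, at least 1270-fold lower (adjusted p = 0.00436; at least 317-fold with counts in steps of 4). Mx1 was near the floor everywhere, at 0 and 0.142 TPM in KO, against 0.641 TPM in WT, and did not pass (adjusted p = 0.324).

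All 8 GBP and IRG GTPases, which attack the vacuoles of intracellular parasites and are classical targets of interferon gamma, were lower in KO at day 0. Their summed level was 5.10 and 2.46 TPM in KO against 477 TPM in WT. Irgm1, a regulator of the IRG family, stood at 2.55 and 0.756 TPM in KO, against 235 TPM in WT (-7.16 ± 0.62, adjusted p = 0.00557). Gbp2 stood at 0.430 and 0.187 TPM in KO, against 62.9 TPM in WT (-7.65 ± 0.52, adjusted p = 0.00436). Its neighbour and near relative Gbp2b stood at 0.0976 and 0.170 TPM in KO, against 51.2 TPM in WT (-8.54 ± 0.46, adjusted p = 0.00335), and Gbp3 at 0.0513 and 0.179 TPM in KO, against 44.1 TPM in WT (-8.39 ± 0.59, adjusted p = 0.00436). Only Irgm1 exceeded 1 TPM in a KO line among these 4, and the other 4, Gbp7, Tgtp1, Igtp and Iigp1, had differences between -7.41 ± 0.45 (Tgtp1) and -4.54 ± 0.36 (Igtp). Reads shared between Gbp2 and Gbp2b are uncertain.

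Bst2, or tetherin, which holds budding virus at the cell surface, was the most abundant member at 93.3 and 109.5 TPM in KO, against 627 TPM in WT (-2.63 ± 0.25, adjusted p = 0.0066). Trim30a, a ubiquitin ligase family member, stood at 0 and 0.0638 TPM in KO, against 18.8 TPM in WT (-8.98 ± 0.99, adjusted p = 0.00978). Cmpk2, a mitochondrial nucleotide kinase, stood at 0.430 and 0.225 TPM in KO, against 7.38 TPM in WT (-4.50 ± 0.48, adjusted p = 0.00915). Bst2 alone among these stayed high in KO. Rsad2, or viperin, the neighbour of Cmpk2 on chromosome 12, was lower as well (-6.44 ± 0.55, adjusted p = 0.00526). Rtp4, which helps carry receptors to the cell surface, stood at 0.585 and 0 TPM in KO, against 27.5 TPM in WT and did not pass (adjusted p = 0.0689).

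The PARP9-DTX3L group, an ADP-ribosyltransferase and its ubiquitin ligase partner with Parp14 beside them on chromosome 16, fell as a block. Parp9 stood at 9.12 and 5.01 TPM in KO, against 78.0 TPM in WT (-3.44 ± 0.30, adjusted p = 0.00543). Dtx3l, whose annotation overlaps that of Parp9, stood at 5.56 and 2.85 TPM in KO, against 40.1 TPM in WT (-3.46 ± 0.48, adjusted p = 0.0173), and Parp14 at 2.66 and 2.35 TPM in KO, against 22.3 TPM in WT (-3.21 ± 0.25, adjusted p = 0.00467). The 3 differences were of like size. Cxcl10, a chemokine that draws T cells, stood at 0.185 and 0.650 TPM in KO, against 28.5 TPM in WT (-5.68 ± 0.60, adjusted p = 0.00896), and Ifi35 at 3.27 and 4.56 TPM in KO, against 23.1 TPM in WT (-2.58 ± 0.49, adjusted p = 0.042). Xaf1, an antagonist of the apoptosis inhibitor XIAP, stood at 37.4 and 44.4 TPM in KO, against 109 TPM in WT, and Ifi27 at 4.95 and 6.13 TPM in KO, against 41.9 TPM in WT. Neither of these last 2 passed (adjusted p = 0.0563 and 0.0552), with KO under WT in both lines.

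Members with the response element core had a larger median difference than members without it. Of the 23 with a match 20 were lower at day 0, with a median log2 difference of -6.74, and of the 10 tested without one 8 were lower, with a median of -3.11. This is a description of chosen genes, with no test. Oas3, Ddx58 and Stat2 carried a match and did not pass, and Oasl2 had none and a difference of -7.32 ± 0.88, so the 2 groups overlapped over most of their range.

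**Figure D2:**
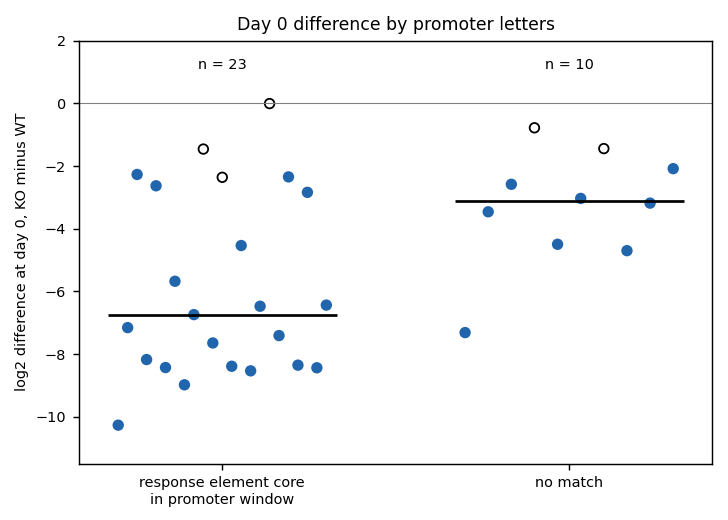
Log2 difference at day 0, KO minus WT, for the 33 tested members with a promoter window, with the response element core (left, 23 genes) or without a match (right, 10 genes). Filled points passed the edgeR test, open points did not, lines are medians (-6.74 and -3.11), and the gene at 0 counts in KO is drawn at its bound.

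At day 4 none of the 45 members passed (0 of 45), where 0.00403% of all genes were called in each direction. At an unadjusted p under 0.05 there were 22 members, where 13.5% of all genes had one. DESeq2 called 17 members, 15 lower and 2 higher, against 1.78% and 3.54% of all genes, and limma-voom called 6 lower and 0 higher, against 0.206% and 0.0202% of all genes. Both KO lines were below WT for 35 members, above it for 6 and on either side for 4, where 36.4% of all genes were below and 41.8% above. The median log2 difference was -0.68, against 0.07 over all genes tested.

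The GBP and IRG genes kept a high level in WT at day 4. Gbp2 stood at 19.1 and 22.8 TPM in KO, against 95.1 TPM in WT, Gbp2b at 12.8 and 15.1 TPM in KO against 67.3 TPM in WT, Gbp3 at 3.77 and 3.94 TPM in KO against 18.7 TPM in WT and Irgm1 at 17.2 and 15.7 TPM in KO against 75.0 TPM in WT. Gbp2 and Gbp2b were higher in WT at day 4 than in WT at day 0, and both KO lines were under WT for all 4. Isg15 stood at 4.09 and 4.95 TPM in KO, against 35.2 TPM in WT and Usp18 at 0.613 and 0.913 TPM in KO against 10.7 TPM in WT. Ifit1 stood at 0.271 and 0.177 TPM in KO, against 1.77 TPM in WT, Ifit3 at 0 and 0.0630 TPM in KO against 0.993 TPM in WT, Ifit3b at 0 and 0.0325 TPM in KO against 0.363 TPM in WT and Mx2 at 0.863 and 0.810 TPM in KO against 6.70 TPM in WT. In each of these the KO lines lay under WT, but no adjusted p passed (Isg15 -3.03 ± 0.50, adjusted p = 0.132; Gbp2 -2.26 ± 0.42, adjusted p = 0.142).

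Other members had smaller differences at day 4. Bst2 stood at 269 and 328 TPM in KO, against 371 TPM in WT, Eif2ak2 at 22.5 and 18.3 TPM in KO against 26.3 TPM in WT and Irf9 at 8.55 and 7.22 TPM in KO against 10.3 TPM in WT. Parp9 stood at 24.9 and 24.7 TPM in KO, against 41.4 TPM in WT, Dtx3l at 12.8 and 11.5 TPM in KO against 18.4 TPM in WT and Parp14 at 3.12 and 3.85 TPM in KO against 9.84 TPM in WT. Irf1 reached its highest level at this day in both genotypes, 70.2 and 60.7 TPM in KO, against 85.5 TPM in WT. Oas2, by contrast, stood at 1.64 and 1.27 TPM in KO, against 0.131 TPM in WT (2.52 ± 0.36, adjusted p = 0.121), and Oas3 at 5.14 and 4.62 TPM in KO against 1.42 TPM in WT (1.82 ± 0.32, adjusted p = 0.137). These 2 had the largest values in favour of KO, without passing.

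The remaining members named above had the following day 4 levels. Oas1a stood at 5.51 and 7.23 TPM in KO, against 8.70 TPM in WT, Oas1g at 5.23 and 3.51 TPM in KO against 5.18 TPM in WT and Oasl2 at 7.53 and 6.06 TPM in KO against 20.2 TPM in WT. Ddx58 stood at 11.4 and 18.6 TPM in KO, against 14.4 TPM in WT, Ddx60 at 6.38 and 3.91 TPM in KO against 3.03 TPM in WT, Zbp1 at 2.30 and 3.62 TPM in KO against 4.24 TPM in WT, Stat2 at 17.4 and 14.3 TPM in KO against 10.6 TPM in WT and Irf7 at 0.334 and 0.256 TPM in KO against 0.805 TPM in WT. Ifit2 stood at 2.61 and 3.41 TPM in KO, against 2.92 TPM in WT, Rtp4 at 0.571 and 1.14 TPM in KO against 4.78 TPM in WT, Trim30a at 0.890 and 0.657 TPM in KO against 3.04 TPM in WT and Cmpk2 at 0.836 and 0.542 TPM in KO against 2.16 TPM in WT. Ddx60 and Stat2 were above WT in both KO lines, and Zbp1, Rtp4, Trim30a, Cmpk2 and Oasl2 were under it in both. Xaf1 stood at 1.86 and 2.62 TPM in KO, against 4.63 TPM in WT, Ifi35 at 11.3 and 14.4 TPM in KO against 16.4 TPM in WT, Ifi27 at 1.45 and 2.13 TPM in KO against 2.68 TPM in WT, Cxcl10 at 5.30 and 8.41 TPM in KO against 7.28 TPM in WT and Mx1 at 0.0507 and 0.118 TPM in KO against 0.0792 TPM in WT. Xaf1, high at day 0 in both genotypes, was low in all 3 libraries.

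At day 8 the direction was the other way: 8 of 45 members were higher in KO and 0 were lower, where 5.01% of all genes were higher and 4.86% lower. Both KO lines were above WT for 31 members, below it for 10 and on either side for 4, where 44.0% of all genes were above and 40.3% below. The median log2 difference was 0.87, against 0.08 over all genes tested. The counts of calls rest on single libraries: without the G6 or the H8 library of day 4, or without the G6 library of day 8, 0 members passed, without the H8 library of day 8 there were 5, and without either KO day 0 library there were 16, of which 14 were higher and 2 lower.

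Of these 8 members 4 were OAS genes. Oas3 stood at 3.16 and 3.77 TPM in KO, against 0.525 TPM in WT (3.17 ± 0.35, adjusted p = 0.0175), and Oas2 at 2.35 and 2.56 TPM in KO, against 0.673 TPM in WT (2.92 ± 0.36, adjusted p = 0.0183). Oas1g stood at 10.2 and 15.7 TPM in KO, against 2.06 TPM in WT (2.70 ± 0.40, adjusted p = 0.0231), and Oas1a at 10.5 and 16.2 TPM in KO, against 2.82 TPM in WT (2.36 ± 0.40, adjusted p = 0.0264). For Oas2 the size depends on the scale: with log2(TPM + 0.1) the difference was 1.72 (limma adjusted p = 0.0478), and with log2(TPM + 1) it was 1.04 and did not pass (limma adjusted p = 0.0662). Both KO lines were above WT in all 4, and the 3 further OAS genes had positive differences that did not pass; Oasl2, for one, stood at 4.37 and 3.69 TPM in KO, against 1.86 TPM in WT. Zbp1 had 0 counts in WT against 1.57 and 2.17 TPM in KO, which put it at least 60.2-fold higher in KO (adjusted p = 0.0142). With counts in steps of 4 it was at least 15.0-fold higher. Its size too depends on the scale, at 4.28 with log2(TPM + 0.1) and 1.51 with log2(TPM + 1), and it passed on both. Xaf1 stood at 18.7 and 28.8 TPM in KO, against 3.74 TPM in WT (2.74 ± 0.38, adjusted p = 0.0211). Irf1 stood at 35.4 and 34.1 TPM in KO, against 11.2 TPM in WT (1.59 ± 0.21, adjusted p = 0.0208), with the KO lines almost equal. Bst2 stood at 137 and 179 TPM in KO, against 67.6 TPM in WT (1.33 ± 0.28, adjusted p = 0.039).

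The families that differed most at day 0 lay closer to WT at day 8. Isg15 stood at 4.11 and 4.15 TPM in KO, against 2.24 TPM in WT, Usp18 at 2.07 and 2.72 TPM in KO against 2.52 TPM in WT and Ifit1 at 0.416 and 0.293 TPM in KO against 0.199 TPM in WT. Gbp2 stood at 14.2 and 24.4 TPM in KO, against 6.94 TPM in WT (1.58 ± 0.47, adjusted p = 0.0876), Gbp2b at 10.5 and 16.8 TPM in KO against 4.94 TPM in WT, Gbp3 at 3.33 and 4.14 TPM in KO against 2.94 TPM in WT and Irgm1 at 12.8 and 13.2 TPM in KO against 22.0 TPM in WT. Gbp2, Gbp2b and Gbp3 were above WT in both KO lines and Irgm1 below it, and none of them passed. Parp9 stood at 12.8 and 10.3 TPM in KO, against 5.64 TPM in WT, Dtx3l at 6.29 and 4.90 TPM in KO against 3.41 TPM in WT and Parp14 at 2.85 and 3.42 TPM in KO against 1.59 TPM in WT (1.15 ± 0.27, adjusted p = 0.0514). The 3 genes were above WT in both lines, just short of the threshold for Parp14.

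Ifit2 had a negative difference at day 8, at 2.37 and 1.78 TPM in KO, against 10.1 TPM in WT (-2.17 ± 0.60, adjusted p = 0.0728); its WT day 8 level was the highest of all 9 libraries. Ifit3 stood at 0.299 and 0.324 TPM in KO, against 0.623 TPM in WT, Ifit3b at 0.118 and 0.149 TPM in KO against 0.235 TPM in WT and Mx2 at 0.533 and 1.18 TPM in KO against 1.35 TPM in WT. Mx1 had 0 counts in WT and 0.102 and 0.0263 TPM in KO. Only Ifit2 was far from the floor among these IFIT and MX genes. Ddx58 stood at 23.7 and 50.3 TPM in KO, against 13.2 TPM in WT, Eif2ak2 at 29.8 and 27.9 TPM in KO against 32.4 TPM in WT, Ddx60 at 1.07 and 1.36 TPM in KO against 0.276 TPM in WT, Stat2 at 17.0 and 16.0 TPM in KO against 10.1 TPM in WT, Irf9 at 11.1 and 10.9 TPM in KO against 14.1 TPM in WT and Irf7 at 0.508 and 0.584 TPM in KO against 0.218 TPM in WT. Ifi27 stood at 3.15 and 8.91 TPM in KO, against 1.94 TPM in WT, Ifi35 at 4.92 and 10.3 TPM in KO against 4.54 TPM in WT and Cxcl10 at 5.17 and 3.21 TPM in KO against 7.34 TPM in WT. Rtp4 stood at 1.24 and 1.06 TPM in KO, against 1.21 TPM in WT, Trim30a at 0.364 and 0.290 TPM in KO against 0.734 TPM in WT and Cmpk2 at 0.545 and 0.541 TPM in KO against 1.01 TPM in WT. Trim30a, Cmpk2 and Cxcl10 were below WT in both KO lines, and Ddx58, Ddx60, Ifi27 and Ifi35 above it.

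**Figure D3:**
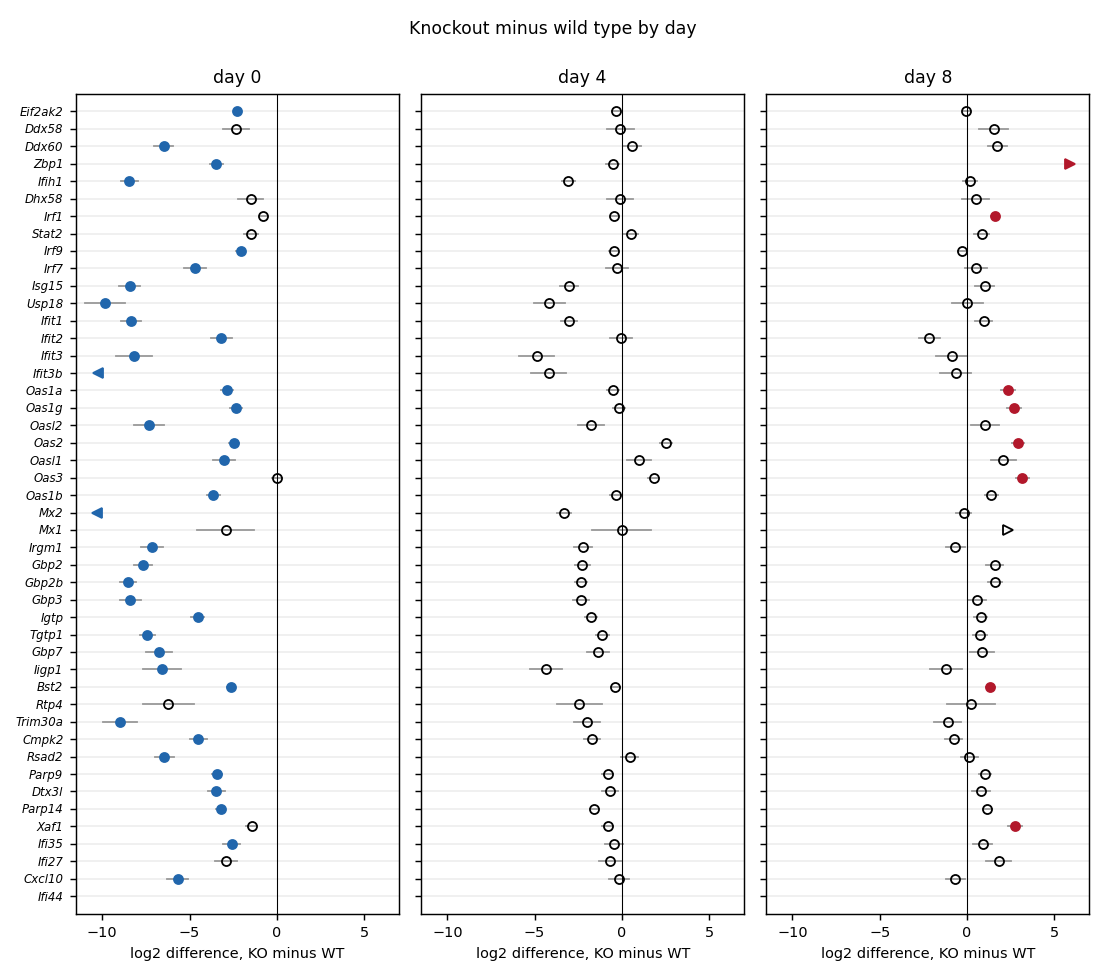
Log2 difference, KO minus WT, of each member at days 0, 4 and 8, with genes in rows by role and bars of 1 SE. Filled blue points were lower and filled red points higher in the edgeR test, open points did not pass, and triangles mark genes at 0 counts in a group, drawn at their bound: 36 are blue at day 0, none is filled at day 4 and 8 are red at day 8.

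Within KO cells 20 members rose as the embryoid bodies formed. Between day 0 and day 4, 20 of 45 were higher at day 4 and 3 were lower, where 9.56% of all genes were higher and 5.16% lower. The GBP and IRG genes led: 7 of the 8 were higher at day 4, with Gbp2b at 12.8 and 15.1 TPM at day 4 against 0.0976 and 0.170 TPM at day 0 (6.67 ± 0.42, adjusted p = 0.00148) and Gbp2 at 19.1 and 22.8 against 0.430 and 0.187 TPM (6.06 ± 0.47, adjusted p = 0.00194). The called members of highest mean level were Bst2 (1.56 ± 0.22, adjusted p = 0.00937), Irgm1 (3.36 ± 0.51, adjusted p = 0.0124) and Irf1 (2.54 ± 0.17, adjusted p = 0.00148). Isg15 was also higher, at 4.09 and 4.95 TPM at day 4 against 0.182 and 0.635 TPM at day 0 (3.42 ± 0.52, adjusted p = 0.0122). None of the 4 IFIT genes passed. Without the G6 library of day 4 the counts were 10 higher and 1 lower, and without the H8 library of day 4 they were 7 higher and 1 lower. The calls of Irgm1, Isg15, Gbp7, Tgtp1, Oas1g, Oas2, Oasl2, Parp9, Dtx3l, Rsad2, Trim30a and Ifi35 were lost without either of these libraries. Those of Bst2, Cxcl10 and Igtp were lost without the H8 library. Of the 23 calls, 16 were lost under at least 1 alternative.

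In KO, 3 members went the opposite way. Xaf1 fell to 1.86 and 2.62 TPM at day 4, against 37.4 and 44.4 TPM at day 0 (-4.10 ± 0.30, adjusted p = 0.00177). Oas2 fell to 1.64 and 1.27 TPM, against 4.95 and 5.35 TPM (-2.25 ± 0.26, adjusted p = 0.00543), and Oas1g to 5.23 and 3.51 TPM, against 9.54 and 10.3 TPM (-1.23 ± 0.28, adjusted p = 0.0392). The days did not overlap for any of the 3. Between day 4 and day 8 a single member passed (1 of 45, with 0.165% of all genes higher and 0.145% lower): Xaf1, back at 18.7 and 28.8 TPM (3.43 ± 0.29, adjusted p = 0.0318), a call that was lost without any 1 of the 4 KO libraries of these days. Between day 0 and day 8, 15 members were higher at day 8 and 1, Oas2, was lower (-1.31 ± 0.25, adjusted p = 0.0327), where 5.92% of all genes were higher and 1.97% lower. The 3 highest-level members among these were Irgm1 (3.02 ± 0.51, adjusted p = 0.0233), Irf1 (1.52 ± 0.16, adjusted p = 0.00672) and Gbp2 (5.94 ± 0.47, adjusted p = 0.00311). Of the 16 calls between these days, 12 were lost under at least 1 alternative, that of Oas2 under 8 and that of Irgm1 under 4. Without either day 4 library of KO, 6 members passed.

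In WT the course ran downward, with 1 library a day and so no test. By log2(TPM + 1), 34 of 45 members were over 2-fold lower at day 4 than at day 0 and 1, Irf1, was over 2-fold higher, where 7.49% and 4.78% of all genes were. From day 4 to day 8 26 were over 2-fold lower and 1, Ifit2, higher, where 4.35% and 10.7% of all genes were. Between day 0 and day 8, 43 of 45 were over 2-fold lower, where 8.03% of all genes were, with a median of -3.26 against 0.03 over all genes.

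**Figure D4:**
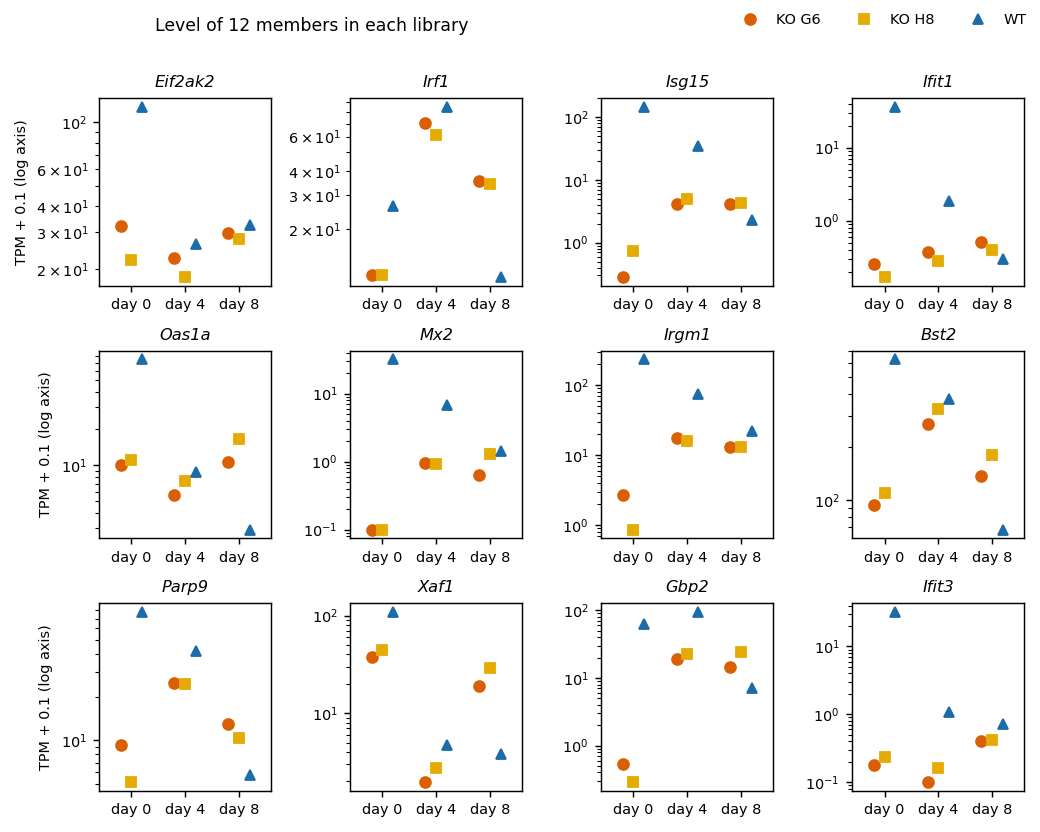
Level of 12 members (TPM + 0.1, log axis) at days 0, 4 and 8 in KO line G6 (circles), KO line H8 (squares) and WT (triangles), 1 library a point: the most abundant member of each role, with Gbp2 and Ifit3. Isg15 and Gbp2 rise in both KO lines between days 0 and 4, Xaf1 dips at day 4 in KO and not at day 8, and WT is highest at day 0 except for Irf1 and Gbp2.

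The difference between genotypes changed with the day. The day 8 difference exceeded the day 0 difference for 35 of 45 members and fell short of it for 0, where 3.75% and 0.948% of all genes did so. The day 4 difference exceeded the day 0 difference for 9 members, Gbp2, Gbp2b, Gbp3, Tgtp1, Ifih1, Ddx60, Rsad2, Oas2 and Mx2, where 0.456% of all genes did, and fell short of it for 0, where 0.0484% did. For the members of highest mean level the change was 3.96 ± 0.39 (Bst2, adjusted p = 0.016), 6.48 ± 0.89 (Irgm1, adjusted p = 0.0233) and 2.37 ± 0.28 (Irf1, adjusted p = 0.0193) on the log2 scale at day 8, and 5.38 ± 0.70 (Gbp2, adjusted p = 0.0495) at day 4. These 2 contrasts share the day 0 libraries. Calls in both rest on few libraries: without any 1 of the 4 KO libraries of days 4 and 8, 0 members passed in either contrast, and with the KO line as a block the first count was 39 and the second 2.

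The lines H8 and G6 were compared with each other over the set. With line as a term across the 3 days, 0 of 45 members passed in edgeR, where 0.00403% of all genes were lower and 0.0% higher. At an unadjusted p under 0.05 there were 9 members, where 8.68% of all genes had one, and DESeq2 called 2, where 1.03% of all genes were lower and 2.05% higher. Ddx58 had the largest gap relative to its error, higher in H8 by 1.18 ± 0.23 on the log2 scale (adjusted p = 0.258): its G6 and H8 levels were 11.6 and 38.6 TPM in stem cells (day 0), 11.4 and 18.6 TPM by day 4 and 23.7 and 50.3 TPM by day 8. Taken line by line against WT, the median member was at a log2 difference of -4.27 in G6 and -4.22 in H8 for day 0, -0.84 and -0.68 for day 4, and 0.87 and 0.96 for day 8.

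Genes of the pathway outside the set were read beside it. Interferon genes were at or near the floor: 16 to 21 of 21 type I, II and III genes had 0 TPM in each library, and their summed level never exceeded 0.766 TPM. Ifnb1 had 0 counts in every KO library against 4 counts in WT at day 0, and Ifng had 0 against 10. Ifnk, the highest by mean TPM, had 0 and 0 counts in KO against 25 in WT at day 0. At day 4 it had 8 and 7 against 14, and at day 8 it had 20 and 10 against 17. Ifna13 went the other way, with 0 and 7 counts in KO against 0 in WT at day 0. In the later KO libraries it had 4 to 13 counts, against 2 and 0 in WT. Ifna4 had 4 and 0 counts in KO against 13 in WT at day 4. The receptor subunit Ifnar1 stood at 25.0 and 19.8 TPM in KO, against 23.2 TPM in WT at day 0, the kinase Jak1 at 47.0 and 51.7 TPM in KO against 46.6 TPM in WT and Stat3 at 87.7 and 136 TPM in KO against 79.9 TPM in WT, and none of these 3 passed. At day 8 Ifnar1 was lower, at 27.9 and 29.0 TPM in KO, against 63.3 TPM in WT (-1.09 ± 0.18, adjusted p = 0.026).

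Among 18 upstream sensing genes 1 was lower at day 0, the endosomal RNA receptor Tlr3 at 0.258 and 0.194 TPM in KO, against 3.62 TPM in WT (-3.96 ± 0.45, adjusted p = 0.0104), which is 1 call among 18 genes where 4.33% of all genes were lower, and 0 of 9 negative regulators passed. Of 40 further interferon-induced genes 38 were tested, and 21 were lower and 0 higher at day 0, where 4.33% and 1.11% of all genes were. Their median log2 difference was -3.50. Among them Parp12 stood at 16.4 and 10.6 TPM in KO, against 121 TPM in WT (-3.17 ± 0.35, adjusted p = 0.00994), Pnpt1 at 50.8 and 51.7 TPM in KO against 129 TPM in WT (-1.30 ± 0.17, adjusted p = 0.0149) and Trim12c at 2.55 and 2.96 TPM in KO against 25.6 TPM in WT (-3.22 ± 0.22, adjusted p = 0.00436). Pml stood at 149 and 77.7 TPM in KO against 138 TPM in WT and Phf11d at 55.5 and 71.6 TPM in KO against 104 TPM in WT, without passing. At day 4, 0 of the 38 passed, where 0.00403% of all genes were called in each direction. At day 8, 3 were higher (Phf11d, Nlrc5 and Slfn8) and 1, Slfn5, lower, where 5.01% of all genes were higher and 4.86% lower.

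Markers of cell types were also compared between the genotypes. At day 8 the 8 stem cell markers summed to 7412 and 7125 TPM in KO against 1227 TPM in WT, with 7 of 8 higher, where 5.01% of all genes were. Lower were 4 of 10 fibroblast markers, 4 of 5 tested endothelial markers and 3 of 10 mesoderm and endoderm markers, where 4.86% of all genes were. Of 8 tested leukocyte markers 2 were higher and 0 lower, where 5.01% and 4.86% of all genes were. Their differences were 4 positive and 4 negative, with a median of 0.92 on the log2 scale. At day 0 the 8 stem cell markers summed to 10289 and 10402 TPM in KO against 7292 TPM in WT: 2 of 8, Esrrb and Zfp42, were higher, where 1.11% of all genes were, all 8 differences were positive and their median was 0.81 on the log2 scale. The 10 fibroblast markers summed to 208 and 116 TPM in KO against 359 TPM in WT, with Col1a1 at 44.2 and 27.6 TPM in KO against 54.5 TPM in WT and Acta2 at 46.5 and 33.9 TPM in KO against 153 TPM in WT. Of their differences 9 were negative and 1 positive, with a median of -0.88 on the log2 scale, and 0 of 10 passed. The 10 leukocyte markers summed to 133 and 277 TPM in KO against 89.3 TPM in WT, mostly Laptm5 and Cd68. Ptprc and Adgre1 stayed at or under 0.194 TPM in all day 0 libraries. Their counts were nonetheless higher in WT, at 28 against 4 and 4 in KO (Ptprc) and 38 against 0 and 4 (Adgre1). So were those of Lyz2 (211 against 4 and 38), Csf1r (102 against 4 and 6) and Itgam (549 against 176 and 255), in a deeper library. Fcer1g went the other way, with 0 counts in WT against 24 and 36 in KO. The sum does not describe most of this list: of the 8 tested, 5 differences were negative and 3 positive. Their median was -0.38 on the log2 scale, and 0 passed. The part of cell composition in the differences of the members was not tested.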

How the data were processed

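PolyA+ RNA-seq of 9 mouse libraries was analysed: KO lines G6 and H8 and 1 WT library at days 0, 4 and 8. Per the labels' processing notes the submitters used HISAT2 2.0.5 and StringTie 1.3.3b on build mm10, with no roles stated; which tool counted reads, against which gene models and with what strand setting, is not given in the sources used here. The authors deposited whole-number counts and TPM values per gene. All 49326 named identifiers were found in GENCODE M21, and 259 entries without a gene name, at most 0.04% of counts, were left out.

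The members and gene lists were chosen with earlier results of these data known. Counts were tested with edgeR 4.0.16 (R 4.3.3; TMM scaling, quasi-likelihood test) on the 6 group means with 3 residual degrees of freedom, over 24794 genes with at least 10 counts per median library (0.0791 CPM) in 2 libraries. SE is the log2 difference divided by the square root of F. DESeq2 1.42.0, limma 3.58.1 (voom, and log2 of TPM plus 1 or 0.1), other scalings, filters and left-out libraries were alternatives. In each role the up to 4 members of highest mean TPM were named with every value, with called members against the majority and the 3 called members of highest mean TPM per comparison. Lists outside the set were named by the 4 highest means and 4 highest called, of which the text gives the main ones; 1 receptor and signalling gene is not reported here.

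The same KO lines were sampled at each day, so a fit with the line as a replicate block was run: the line deviations of 15732 genes correlated at 0.193 (days 0 and 4), 0.129 (days 0 and 8) and 0.34 (days 4 and 8). The KO pair of each day is lines G6 and H8, so p-values measure the spread between these 2 lines, not between cultures of 1 line. Nothing states that the libraries of a line came from separate cultures. Of the members, 19 overlap another annotated gene and 24 have another member within 200 kb; Gbp2 and Gbp2b, Ifit3 and Ifit3b, and Oas1a and Oas1g are close copies whose reads may be split. In the KO day 0 libraries 26 of the 35 member counts between 1 and 40 fell on multiples of 4. Promoter windows are RefSeq's (GRCm38.p6).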

Additional observations from a re-analysis of the deposited data

Results flagged for a closer look

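The genotype difference changed between days in a test of the change itself, for 9 members at day 4 against day 0 and for 35 at day 8 against day 0; every one of these changes was toward a higher level in KO relative to WT. All values are changes of the log2 difference, KO minus WT, tested with edgeR over all genes. Both KO lines shared each direction in the levels given above, and each call was lost in the alternatives without 1 of the KO libraries of days 4 and 8.

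Between day 0 and day 4 the difference moved by 4.99 for Oas2, 6.20 for Gbp2b, 7.04 for Ddx60, 5.38 for Gbp2 and 6.03 for Gbp3. Mx2, at 0 counts in KO at day 0, passed with an adjusted p of 0.0428 and has no finite change to give.

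Between day 0 and day 8 it moved by 10.13 for Gbp2b, 9.22 for Gbp2, 8.96 for Gbp3 and 6.48 for Irgm1 among the GTPases. In the OAS family it moved by 5.39 for Oas2, 5.20 for Oas1a, 5.04 for Oas1g and 8.36 for Oasl2. The ISG15 system moved by 9.43 for Isg15 and 9.85 for Usp18, and Ifit1 by 9.29. The ADP-ribosyltransferase group moved by 4.36 for Parp14, 4.46 for Parp9 and 4.27 for Dtx3l. The sensors moved by 8.20 for Ddx60 and 2.22 for Eif2ak2, and the transcription factors by 2.37 for Irf1, 5.21 for Irf7 and 1.82 for Irf9. Other effectors moved by 3.96 for Bst2, 7.88 for Trim30a, 3.72 for Cmpk2, 5.01 for Cxcl10 and 4.19 for Xaf1. Zbp1, Mx2 and Ifit3b, each at 0 counts in a group, passed with adjusted p of 0.0129, 0.0155 and 0.0365.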

How the results depend on the processing

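The count at day 0, KO minus WT, stayed within 1.5 times of its 36 members under all 10 other settings (33 to 42, with 39 under the replicate block) and when 1 library was left out (29 to 37). Leaving out the WT library of a compared day, or 1 KO line altogether, gave no value or left no residual degrees of freedom, so the day 0 result has no check against its single WT library. Of the 36 called members 29 passed under every alternative, and 7 (Dtx3l, Ifi35, Ifit2, Iigp1, Irf7, Oas1g and Oasl1) did not pass under at least 1. At day 4 the count of 0 was 17 with DESeq2, 6 with limma-voom and 1 with log2(TPM + 1), and 0 to 0 with 1 library left out. At day 8 the count of 8 was 17 with DESeq2, 16 without the 2 day 0 knockout libraries and 11 under the replicate block, and 0 to 16 with 1 library left out. Within KO, the day 4 minus day 0 count of 23 ranged between 8 and 25 with 1 library left out, the day 8 minus day 0 count of 16 between 6 and 20, and the day 8 minus day 4 count of 1 between 0 and 1; the last was 12 with DESeq2, 2 with limma-voom and 2 under the replicate block. The day 4 minus day 0 change of the genotype difference (9 members) was 34 with DESeq2, 0 with limma-voom, 14 with log2(TPM + 0.1), 21 with log2(TPM + 1), 0 over protein-coding genes and polymorphic pseudogenes alone and 2 under the replicate block, and 0 to 18 with 1 library left out. Mx2 and Oas1b are annotated as polymorphic pseudogenes. The day 8 minus day 0 change (35 members) was 27 to 42 under other settings, and 0 to 38 with 1 library left out. The count between lines was 2 with DESeq2, against 0. The cause of these shifts was not tested. No called member reversed its direction under any alternative. With the window shortened to the 250 bases before the start, the response element core stood in 58.8% of members' windows against 3.04% of all. The shallow KO day 0 libraries limit what can be said of members near the floor there.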

Other observations

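Neighbouring members were called differently in KO cells. On chromosome 5, Oas2 fell between day 0 and day 4 while the next gene of the cluster, Oas3, stood at 4.71 and 4.30 TPM at day 0, 5.14 and 4.62 TPM at day 4 and 3.16 and 3.77 TPM at day 8. Oasl1 and Oasl2 lie side by side on the same chromosome. Oasl1, an OAS-like protein, stood at 2.31 and 1.95 TPM at day 0, 0.647 and 0.643 TPM at day 4 and 1.04 and 2.54 TPM at day 8, whereas Oasl2 stood at 0.730 and 0.0384 TPM, 7.53 and 6.06 TPM and 4.37 and 3.69 TPM at the same days. Oasl2 was higher at day 4 than at day 0 (4.64 ± 0.77, edgeR adjusted p = 0.0159) and Oasl1 did not pass (-1.80 ± 0.54, adjusted p = 0.075); the difference between the 2 genes was not tested. The day 4 calls of Oas2 and Oasl2 were both lost without either KO library of day 4. These pairs were chosen after their values were seen.

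The suppressors Socs3 and Socs1 did not pass at day 0. Socs3, a feedback inhibitor of JAK kinases that leukemia inhibitory factor also induces, stood at 155 and 111 TPM in KO, against 45.6 TPM in WT (1.58 ± 0.51, adjusted p = 0.13), and Socs1, the inhibitor more tied to interferon, at 4.87 and 5.11 TPM in KO, against 7.69 TPM in WT (-0.61 ± 0.39, adjusted p = 0.388).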
